A study of Mus musculus with 6 samples.

Results

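The unfolded protein response genes described here are 10 genes of endoplasmic reticulum stress signalling, namely the sensors Eif2ak3, Ern1 and Atf6, the transcription factors Atf4, Xbp1 and Ddit3, the chaperones Hspa5, Hsp90b1 and Dnajc3, and the degradation factor Herpud1. They were taken by platform gene symbol and were measured by 26 of the 22690 probe sets on each array, 10 of 12393 genes in all. Expression was measured on 6 mouse arrays, 4 of EGFRvIII-driven and 2 of PDGF-B-driven high-grade glioma cells, 1 array per tumour sample. Neural progenitors of E14 embryos were infected with a retrovirus carrying either EGFRvIII, a truncated and constantly active EGF receptor, or the growth factor PDGF-B, each together with DsRed, and were grafted into the brains of adult BALBc mice. The strain label is BALBc INK4a -/- for all 4 EGFRvIII samples and BALBc for both PDGF-B samples, so oncogene and INK4a genotype cannot be told apart in any difference below. The labels do not name the retroviral promoter. They are not uniform on the reporter, DsRed or EGFP, or on whether the cells were sorted directly or cultured.

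Proteins that enter the secretory pathway fold inside the endoplasmic reticulum, and a surplus of unfolded protein there switches on 3 sensors in its membrane. PERK (Eif2ak3) phosphorylates the initiation factor eIF2α, which slows protein synthesis and lets ATF4 be translated; IRE1α (Ern1) splices Xbp1 mRNA into its active form; and ATF6 is cut in the Golgi to release a transcription factor. These factors raise chaperones such as BiP (Hspa5) and, under lasting stress, the pro-apoptotic factor CHOP (Ddit3). ATF4 is also made after amino acid shortage or other stresses through other eIF2α kinases, and much of the pathway works through splicing, cleavage and translation, which probe sets for total mRNA do not read.

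The promoters of several of these genes carry short elements through which the pathway acts. They are shown because 2 gene lists, in which some genes carry such elements, differed between single arrays as described further on. The stretches end at the base before the transcription start and are from RefSeq on GRCm38.p6, read along the gene's own strand. Capitals mark matches on either strand to the ER stress response element ERSE (CCAAT, any 9 bases, CCACG), to its second form ERSE-II (ATTGG, any base, CCACG) or to the C/EBP-ATF element that ATF4 uses (TGATGNAA).
Hspa5 (chr2:34771840-34772089, + strand): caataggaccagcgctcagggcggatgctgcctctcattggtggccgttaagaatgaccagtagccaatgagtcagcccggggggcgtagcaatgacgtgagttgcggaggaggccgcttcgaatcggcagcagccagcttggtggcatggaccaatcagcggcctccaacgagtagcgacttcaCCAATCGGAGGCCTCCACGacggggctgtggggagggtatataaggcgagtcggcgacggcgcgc
Hsp90b1 (chr10:86705445-86705694, - strand): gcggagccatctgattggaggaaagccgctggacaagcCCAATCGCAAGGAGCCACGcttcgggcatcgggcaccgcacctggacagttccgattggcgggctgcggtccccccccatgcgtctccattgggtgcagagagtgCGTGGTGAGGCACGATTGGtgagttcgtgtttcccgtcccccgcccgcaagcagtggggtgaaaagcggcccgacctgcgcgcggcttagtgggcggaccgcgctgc
Dnajc3 (chr14:118937682-118937931, + strand): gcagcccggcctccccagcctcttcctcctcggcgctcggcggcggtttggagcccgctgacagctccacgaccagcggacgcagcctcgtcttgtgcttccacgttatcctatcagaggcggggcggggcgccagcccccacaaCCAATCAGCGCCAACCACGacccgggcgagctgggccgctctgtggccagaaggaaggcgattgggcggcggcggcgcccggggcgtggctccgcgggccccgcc
Herpud1 (chr8:94386179-94386428, + strand): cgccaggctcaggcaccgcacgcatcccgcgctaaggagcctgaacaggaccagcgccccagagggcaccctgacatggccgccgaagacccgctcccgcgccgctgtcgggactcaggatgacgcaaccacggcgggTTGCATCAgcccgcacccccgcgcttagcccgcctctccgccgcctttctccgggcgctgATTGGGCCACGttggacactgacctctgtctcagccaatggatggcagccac
Chac1 (chr2:119350992-119351241, + strand): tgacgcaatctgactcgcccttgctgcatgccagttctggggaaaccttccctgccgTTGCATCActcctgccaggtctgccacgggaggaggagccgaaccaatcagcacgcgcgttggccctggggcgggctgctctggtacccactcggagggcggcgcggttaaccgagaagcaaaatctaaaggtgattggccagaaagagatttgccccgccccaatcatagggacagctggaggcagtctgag
Asns (chr6:7693210-7693459, - strand): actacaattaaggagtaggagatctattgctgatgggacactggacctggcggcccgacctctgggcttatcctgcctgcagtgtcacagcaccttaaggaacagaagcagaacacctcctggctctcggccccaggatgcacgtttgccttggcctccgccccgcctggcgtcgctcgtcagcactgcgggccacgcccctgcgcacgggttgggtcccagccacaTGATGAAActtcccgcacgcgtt

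Matches were sought in windows of 300 bases, from 250 before to 50 after each start. The full ERSE was found in 39 of 32851 such windows (0.119%), ERSE-II in 12 (0.0365%) and the C/EBP-ATF element in 1304 (3.97%). RefSeq windows were at hand for 9 of the 10 genes, all but Atf6. An ERSE or ERSE-II stood in 4 of these 9: Hspa5, Dnajc3, Hsp90b1 with an ERSE on each strand, and Herpud1 with an ERSE-II. Herpud1 alone of the 9 also had a C/EBP-ATF element, and the windows of Eif2ak3, Ern1, Atf4, Xbp1 and Ddit3 held none of the 3 letter patterns. Chac1 and Asns, targets of ATF4 and not among the 10 genes, are shown for the C/EBP-ATF element they carry. On the PERK and ATF4 list described further on, 7 of the 22 genes with a window, tested or not, had this element. On the chaperone and folding list Calr, Canx, Pdia6, Creld2 and Ero1b had an ERSE and Dnajb11 an ERSE-II. Cnpy2 and Txndc5 of that list had a C/EBP-ATF element.

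Levels are log2 RMA intensities, with SDs over the arrays of a group. Each log2 fold change is the EGFRvIII mean less the PDGF-B mean, with its standard error (SE) from limma. A gene was represented by its brightest probe set and tested where this lay above the array's median probe set in at least 2 arrays. That held for 6761 of 12393 genes, and for 9 of the 10 here. Correlations across genes, which are not independent replicates, were 0.9193 to 0.9672 among EGFRvIII arrays, 0.9617 between the PDGF-B arrays and 0.8864 to 0.9383 between groups. The median probe set was 0.12 brighter in EGFRvIII than in PDGF-B arrays, and centring each array on it shifts every log2 fold change down by that amount. Cdkn2a, the INK4a locus, averaged 3.76 ± 0.04 in EGFRvIII cells and 6.80 ± 0.04 in PDGF-B cells (n = 4 and 2), as the strain labels have it; whether its probe set lies within the deletion was not analysed here. EGFRvIII replicates 1 and 2 had Xist at 3.85 and 4.46, against 11.71 to 12.38 in the other 4 arrays. Kdm5d was the reverse, at 9.40 and 8.97 in those 2 arrays, against 3.39 to 3.58 in the other 4. Both PDGF-B arrays were among the 4 with high Xist and low Kdm5d, so this trait is not balanced between the groups. All 9 measured oligodendrocyte progenitor markers, which these gliomas are known to express, were bright enough to be tested. None passed, where 2.23% of all tested genes did, and 5 had an unadjusted p under 0.05, against 25.0%. Of these Nkx2-2, Vcan, Bcan and Ptprz1 were higher in EGFRvIII cells by 2.05, 1.29, 0.81 and 0.44 (log2), against 15.7% of all tested genes in that direction. Pdgfra had -0.86, in the direction of 9.32% of all tested genes. The part of these markers in the results was not tested. All 12 microglia and macrophage, 7 B and plasma cell, 7 T and NK cell, 10 endothelial and 3 red blood cell markers measured were too dim. The mean of the B and plasma cell markers, cells known for a strong unfolded protein response, was 4.07 to 4.29 in EGFRvIII arrays and 4.17 to 4.19 in PDGF-B arrays. Of the 10 pericyte and fibroblast markers only Cspg4 was tested, which is also on the progenitor list.

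None of the 9 tested unfolded protein response genes passed the test between EGFRvIII and PDGF-B cells, where 2.23% of all tested genes did (limma, Benjamini-Hochberg adjusted p under 0.05). The lowest adjusted p among them was 0.0821, for Atf4. At an unadjusted p under 0.05 there were 2 of the 9, Atf4 and Ddit3, both lower in EGFRvIII cells, against 25.0% of all tested genes. This count was 1 without EGFRvIII replicate 4 and 0 without PDGF-B replicate 1. The log2 fold change was below 0 for 6 of the 9, against 43.5% of all tested genes, and the median was -0.19, against 0.06 over all tested genes. With each array centred, 8 of the 9 lay below 0, against 57.4% of all tested genes in that fit.

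**Figure D1:**
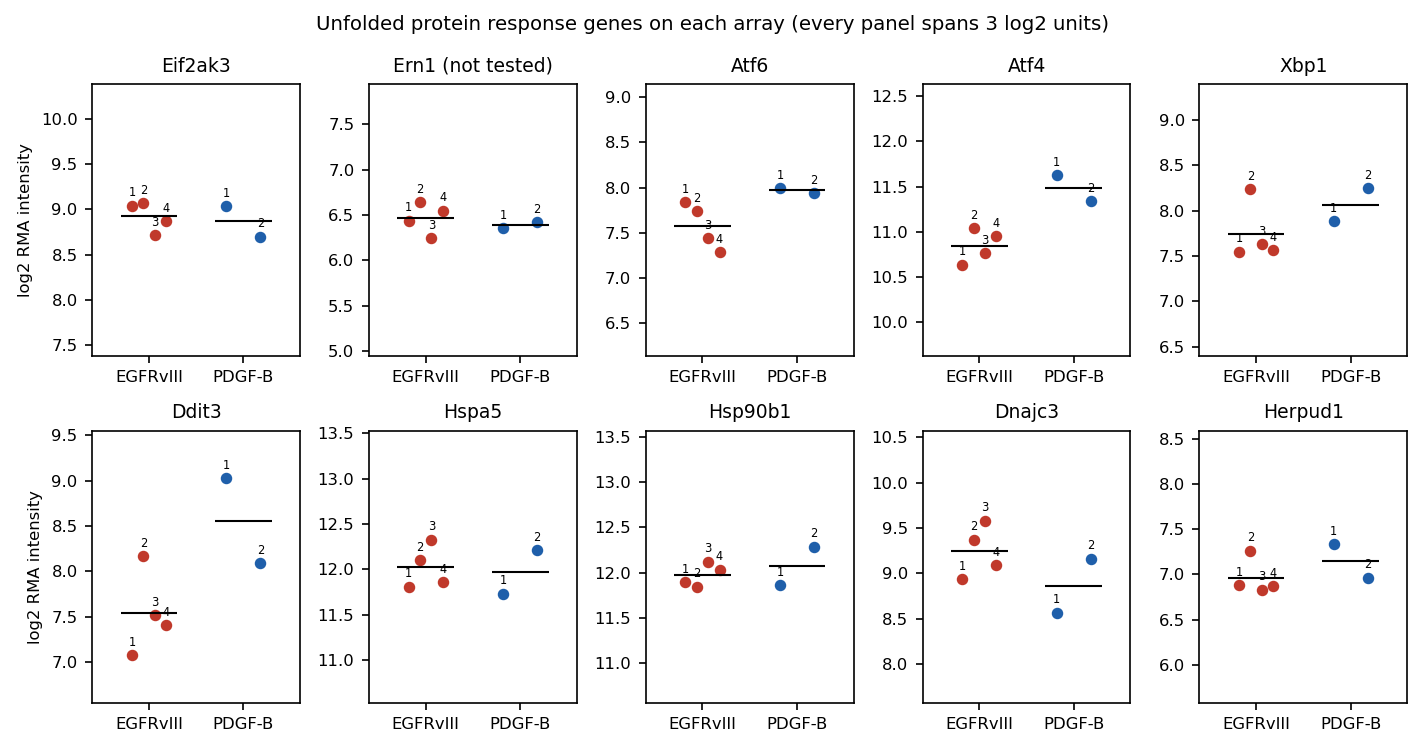
Log2 RMA intensity of the 10 unfolded protein response genes (brightest probe set of each) in the 4 EGFRvIII arrays (red) and the 2 PDGF-B arrays (blue). Points carry the replicate number, horizontal lines are group means, and every panel spans 3 log2 units. Atf4 and Atf6 are the 2 genes whose groups do not overlap, both lower in EGFRvIII arrays, which 14.9% of all tested genes showed. None was higher without overlap, against 22.5% of all tested genes. The 2 PDGF-B arrays lie farthest apart for Ddit3.

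Among the sensors, Eif2ak3, the kinase PERK, stood at 9.04, 9.07, 8.71 and 8.87 in EGFRvIII replicates 1 to 4, against 9.03 and 8.70 in PDGF-B replicates 1 and 2. The groups covered the same range, and the log2 fold change was 0.06 (SE 0.16; 95% confidence interval -0.33 to 0.45; limma adjusted p = 0.855). Its other 2 probe sets were too dim to be tested. Atf6 stood at 7.84, 7.74, 7.44 and 7.29 in EGFRvIII replicates 1 to 4, against 8.00 and 7.94 in PDGF-B replicates 1 and 2. Every EGFRvIII array lay below both PDGF-B arrays, which 14.9% of all tested genes showed, and the log2 fold change was -0.39 (SE 0.18; interval -0.83 to 0.05; limma adjusted p = 0.239). Ern1, the nuclease and kinase IRE1α, was below the array median in every array and was not tested. Its brightest probe set averaged 6.47 ± 0.17 in EGFRvIII cells and 6.39 ± 0.04 in PDGF-B cells, and the other 2 averaged 3.83 and 3.61 in EGFRvIII cells and 3.94 and 4.03 in PDGF-B cells.

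Of the transcription factors, Atf4 and Ddit3 had the lowest adjusted p among the 9 genes and Xbp1 one of 0.424. In these bulk samples fewer cells of a type and less RNA per cell cannot be told apart. Atf4, the factor made when eIF2α is phosphorylated, stood at 10.64, 11.04, 10.76 and 10.95 in EGFRvIII replicates 1 to 4, against 11.62 and 11.34 in PDGF-B replicates 1 and 2. All EGFRvIII arrays lay below both PDGF-B arrays, and the difference was -0.63 on the log2 scale (SE 0.16; interval -1.02 to -0.24; limma adjusted p = 0.0821). A second bright probe set of Atf4, 1438992_x_at, read 9.34, 9.11, 9.31 and 10.32 in EGFRvIII replicates 1 to 4, against 10.99 and 11.08 in PDGF-B replicates 1 and 2. The groups were again apart, and the log2 fold change was -1.52 (SE 0.33; limma adjusted p = 0.0586 over 11991 probe sets). An x in a probe set name marks probes that can also bind related transcripts, and the part of such transcripts in this value was not tested. A call at an adjusted p under 0.05 was reached for this probe set without EGFRvIII replicate 4 (log2 fold change -1.78, limma adjusted p = 0.0336) and over only the probe sets above the median in all 6 arrays (limma adjusted p = 0.0424). The third Atf4 probe set was dim, at 5.47 ± 0.11 in EGFRvIII and 5.66 ± 0.11 in PDGF-B cells.

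Ddit3, the CHOP factor that ATF4 induces, stood at 7.07, 8.17, 7.52 and 7.40 in EGFRvIII replicates 1 to 4, against 9.03 and 8.09 in PDGF-B replicates 1 and 2. PDGF-B replicate 1 was the highest array, while EGFRvIII replicate 2 lay just above PDGF-B replicate 2. At -1.02 its log2 fold change (SE 0.36; interval -1.87 to -0.16; limma adjusted p = 0.15) was the largest in size among the 9 tested genes. It was -0.55 without PDGF-B replicate 1 and -1.49 without PDGF-B replicate 2. Xbp1, the factor that IRE1α activates by splicing, stood at 7.55, 8.24, 7.63 and 7.57 in EGFRvIII replicates 1 to 4, against 7.88 and 8.25 in PDGF-B replicates 1 and 2. EGFRvIII replicate 2 reached the level of PDGF-B replicate 2, and the other 3 EGFRvIII arrays lay below both (log2 fold change -0.32, SE 0.23; interval -0.88 to 0.24; limma adjusted p = 0.424). All 4 Xbp1 probe sets had negative log2 fold changes, from -0.36 to -0.03, and 1420011_s_at at the upper end had 0.09 without PDGF-B replicate 2.

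The chaperones were bright in both groups. Hspa5, the chaperone BiP that also holds the sensors inactive, stood at 11.81, 12.10, 12.32 and 11.86 in EGFRvIII replicates 1 to 4, against 11.73 and 12.21 in PDGF-B replicates 1 and 2. The PDGF-B arrays spanned most of the range of the EGFRvIII arrays, and the log2 fold change was 0.05 (SE 0.21; interval -0.44 to 0.55; limma adjusted p = 0.894), or -0.07 with each array centred and -0.19 without PDGF-B replicate 1. Hsp90b1, the HSP90 of the endoplasmic reticulum, stood at 11.89, 11.85, 12.12 and 12.03 in EGFRvIII replicates 1 to 4, against 11.86 and 12.29 in PDGF-B replicates 1 and 2. Here too the groups overlapped (log2 fold change -0.10, SE 0.16; interval -0.49 to 0.29; limma adjusted p = 0.731), and the other probe set of Hsp90b1 had 0.07.

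Dnajc3, the co-chaperone p58IPK of BiP, stood at 8.94, 9.37, 9.58 and 9.09 in EGFRvIII replicates 1 to 4, against 8.56 and 9.16 in PDGF-B replicates 1 and 2. It had the largest positive log2 fold change of the 10 genes, 0.38 (SE 0.24; interval -0.19 to 0.96; limma adjusted p = 0.361). Its 5 probe sets disagreed in sign: 2 had log2 fold changes of 0.38 and 0.17, another pair had -0.18 and -0.16, and a dim one had -0.61. With the mean of these probe sets the value was -0.08. Herpud1, a membrane protein that assists the removal of misfolded proteins, stood at 6.88, 7.26, 6.83 and 6.87 in EGFRvIII replicates 1 to 4, against 7.34 and 6.97 in PDGF-B replicates 1 and 2. The groups overlapped through EGFRvIII replicate 2, and the log2 fold change was -0.19 (SE 0.18; interval -0.62 to 0.24; limma adjusted p = 0.54), and the second probe set had -0.33.

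**Figure D2:**
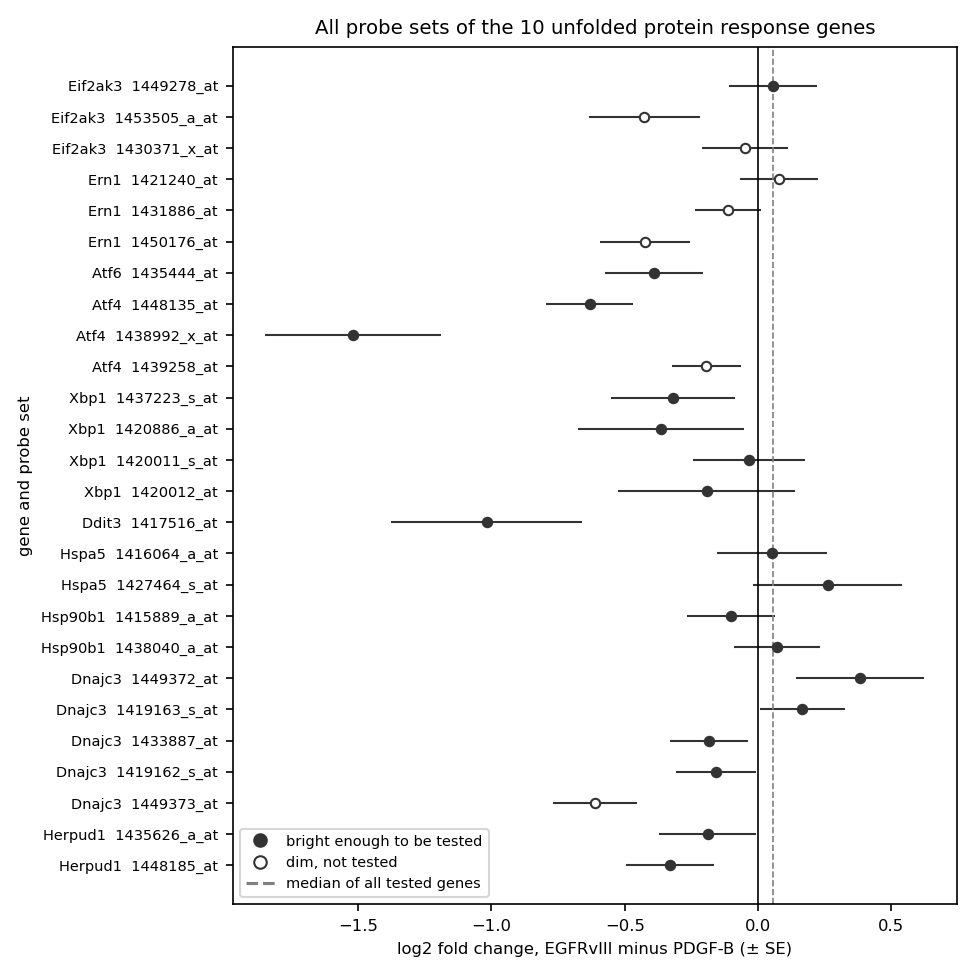
Log2 fold change (EGFRvIII minus PDGF-B, horizontal axis) of all 26 probe sets of the 10 genes, with bars of 1 SE of the limma fit. Filled points were bright enough to be tested, open points were not, and the dashed line is the median of all tested genes at 0.06. The 3 points farthest to the left among the filled ones are both bright Atf4 probe sets and Ddit3.

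Of the 26 probe sets 19 were tested and none passed, where 2.64% of all tested probe sets did. At an unadjusted p under 0.05 there were 3, the 2 bright ones of Atf4 and that of Ddit3, against 24.8% of all. In 3 of the 19, both bright Atf4 probe sets and that of Atf6, every EGFRvIII array lay below both PDGF-B arrays, a share near the 16.1% of all tested probe sets. The log2 fold change was negative in 13 of the 19 tested probe sets. Of all 26, including the 7 too dim to be tested, 19 had a negative and 7 a positive value. Several of these probe sets measure the same gene, 5 of them Dnajc3 and 4 Xbp1, so they are not independent. These counts of signs were not compared with all tested probe sets.

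Genes downstream of PERK and ATF4 were lower in EGFRvIII than in PDGF-B cells in most cases, without any call. Of 26 measured genes on this list 22 were tested and 0 passed, where 2.23% of all tested genes did. An unadjusted p under 0.05 was found for 12, all lower, against 9.32% of all tested genes in that direction. The log2 fold change was negative for 19 of 22, against 43.5% of all tested genes, with a median of -0.68, against 0.06. In 12 of 22 every EGFRvIII array lay below both PDGF-B arrays, against 14.9% of all tested genes. Chac1 and Cebpb were below the array median in every EGFRvIII array, so their place in these counts follows largely from the filter. Over genes above the median in all 6 arrays, 8 of 17 had an unadjusted p under 0.05, against 25.3% of all tested genes. There 15 of 17 were negative, against 44.1%, with a median of -0.54. By the naming rule the list is represented by Cebpg and Stc2. Cebpg, which pairs with ATF4 on C/EBP-ATF elements, averaged 8.83 ± 0.17 in EGFRvIII and 9.78 ± 0.40 in PDGF-B cells (log2 fold change -0.94, SE 0.20; limma adjusted p = 0.058), and Stc2, a secreted glycoprotein, averaged 7.15 ± 0.46 in EGFRvIII and 8.74 ± 0.48 in PDGF-B cells (-1.59, SE 0.33; limma adjusted p = 0.058). With each array centred both passed, at limma adjusted p = 0.0482 and 0.04999. Without PDGF-B replicate 1 the adjusted p was 0.225 and 0.240. As the mean of its probe sets Cebpg had a log2 fold change of -0.51.

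Further targets of ATF4, chosen after their values were seen, had the same sign. Chac1, which degrades glutathione, stood at 4.07, 5.60, 5.42 and 5.88 in EGFRvIII replicates 1 to 4, against 8.50 and 6.79 in PDGF-B replicates 1 and 2 (log2 fold change -2.40, SE 0.62; limma adjusted p = 0.0820). Trib3, a pseudokinase that ATF4 and CHOP induce, stood at 5.75, 7.05, 6.12 and 6.35 in EGFRvIII replicates 1 to 4, against 9.21 and 6.98 in PDGF-B replicates 1 and 2 (-1.78, SE 0.62; limma adjusted p = 0.148). In both genes PDGF-B replicate 1 was the highest array, above PDGF-B replicate 2 and all EGFRvIII arrays. Chac1 lay below the array median in every EGFRvIII array and entered the test only through the PDGF-B arrays. Asns, asparagine synthetase, and Slc7a5, an amino acid transporter, had log2 fold changes of -1.08 and -0.96. Atf5, a relative of Atf4, and Mthfd2, a mitochondrial folate enzyme, had -1.32 and -1.29. Of the 3 genes with the opposite sign, also chosen after their values were seen, Nfe2l2, the antioxidant factor NRF2 that PERK can phosphorylate, had 0.56, Ppp1r15a, the GADD34 subunit that reverses eIF2α phosphorylation, had 0.24 and Ddit4, an inhibitor of mTORC1, had 0.01, and none passed.

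PDGF-B replicate 1 weighed heavily in these values. In 20 of the 22 tested PERK and ATF4 genes it was higher than PDGF-B replicate 2, by a median of 0.69, and in 19 of 22 it was the highest of all 6 arrays, against 53.4% and 20.1% of all tested genes. Without it 3 of the 22 had an unadjusted p under 0.05, against 16.9% of all tested genes in that fit, where 12 had one over all arrays. Without it the list median was -0.29 with 16 of 22 negative; without PDGF-B replicate 2 it was -1.18 with 20 of 22 negative. In the same fits Trib3 had -0.66 and -2.89 and Chac1 -1.54 and -3.25. Atf4 depended less on that array, at -0.49 without PDGF-B replicate 1 and -0.77 without replicate 2, and 1438992_x_at at -1.57 and -1.47. Restricted to the 4 arrays with high Xist, the list median was -0.64, Atf4 had -0.62 and Ddit3 -1.10.

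**Figure D3:**
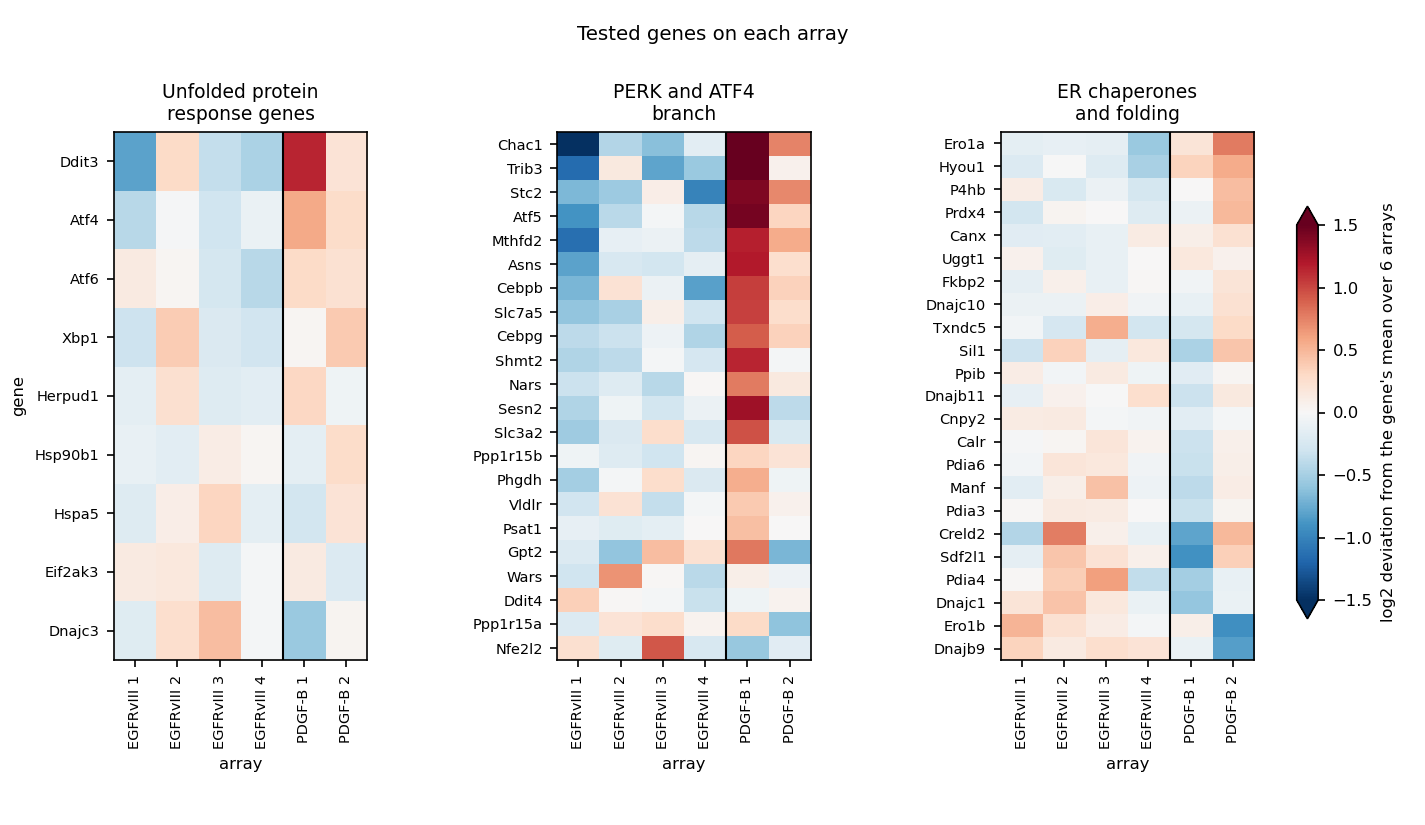
Deviation of each tested gene from its own mean over the 6 arrays (log2, colour, scale ending at 1.5 in both directions), with genes in rows ordered by log2 fold change, the 4 EGFRvIII arrays left of the black line and the 2 PDGF-B arrays right of it. In the panel of PERK and ATF4 genes PDGF-B replicate 1 is the highest array for 19 of 22 genes, while in the panel of chaperone and folding genes (ER, endoplasmic reticulum) it is the lowest for 13 of 23.

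Endoplasmic reticulum chaperones and folding enzymes ran the other way between the same 2 arrays. Of 23 tested genes of this list, PDGF-B replicate 1 was below PDGF-B replicate 2 in 20, by a median of 0.40, and was the lowest of all 6 arrays in 13, against 46.6% and 22.3% of all tested genes. By their brightest probe sets Hspa5, Hsp90b1 and Dnajc3 shared this, each lower in PDGF-B replicate 1 than in replicate 2 by 0.42 to 0.60. For their other tested probe sets, replicate 1 less replicate 2 was -0.57 in Hspa5 and -0.36 in Hsp90b1. In Dnajc3 it was -0.42, -0.23 and, for 1419162_s_at, 0.17. Creld2, a folding factor with an ERSE in its promoter, chosen after its values were seen, was at 8.51 in replicate 1 and 9.78 in replicate 2. Across the 10 tested genes of the genome with a full ERSE in the window, 7 were lower in PDGF-B replicate 1 than in replicate 2, with a median difference of -0.41. These were Hspa5, Hsp90b1, Dnajc3, Calr, Canx, Pdia6 and Creld2, all described here already or on the chaperone list. This count therefore repeats the values above and is no separate support. Ero1b of that list was higher in PDGF-B replicate 1, at 6.81 against 5.80. Of the 7 tested genes with an ERSE-II, 3 were lower and 4 higher there, with a median difference of 0.17. Across the 139 with a C/EBP-ATF element 88 were higher there, with a median difference of 0.15. Of all tested genes 46.6% were lower and 53.4% higher there. Differences between single arrays have no replicate error, so these counts describe the 2 arrays and were not tested.

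Between the groups the chaperone and folding genes were close to the background. None of the 23 tested passed, where 2.23% of all tested genes did. An unadjusted p under 0.05 was found for 4, against 25.0% of all tested genes. Of these, 2 were lower, against 9.32%, and 2 higher, against 15.7% of all tested genes. The list median was 0.13, or 0.01 with each array centred and -0.12 without PDGF-B replicate 1. Hyou1, a large chaperone of the reticulum, averaged 9.37 ± 0.20 in EGFRvIII and 10.04 ± 0.15 in PDGF-B cells (log2 fold change -0.67, SE 0.16; limma adjusted p = 0.0735), and had -0.39 as the mean of its probe sets. Ero1a, the oxidase that drives disulphide formation, averaged 8.19 ± 0.21 in EGFRvIII and 8.91 ± 0.41 in PDGF-B cells (-0.72, SE 0.21; limma adjusted p = 0.106), and had -0.43 without PDGF-B replicate 2. In both genes all EGFRvIII arrays lay below both PDGF-B arrays, which 14.9% of all tested genes showed. In 2 others of the list, Dnajb9 and Dnajc1, all EGFRvIII arrays lay above both PDGF-B arrays, which 22.5% of all tested genes showed. Chosen after their values were seen, they had log2 fold changes of 0.70 and 0.51. The 10 genes with a full ERSE had 8 positive and 2 negative log2 fold changes, with a median of 0.21 and no call. Among these 10 are Hspa5, Hsp90b1, Dnajc3, Calr, Canx, Pdia6, Creld2 and Ero1b, already counted above with their lists. The 7 with an ERSE-II had 3 positive and 4 negative, with a median of -0.01 and no call. The 139 with a C/EBP-ATF element had 71 positive and 68 negative, with a median of 0.0044 and 3 calls, beside the median of -0.68 on the PERK and ATF4 list. Over all tested genes 43.5% were negative, the median was 0.06 and 2.23% were called.

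Genes of endoplasmic reticulum associated degradation, the route by which Herpud1 works, had a list median of 0.16, or 0.04 with each array centred and 0.08 without PDGF-B replicate 1. Of 18 tested genes 0 passed, where 2.23% of all tested genes did, and 6 had an unadjusted p under 0.05, against 25.0%. Of these 4 were higher, a share near the 15.7% of all tested genes in that direction. Os9, a lectin that recognises misfolded glycoproteins, averaged 9.54 ± 0.26 in EGFRvIII and 8.62 ± 0.10 in PDGF-B cells (log2 fold change 0.92, SE 0.19; limma adjusted p = 0.058). Edem2, which trims their mannose, averaged 7.06 ± 0.16 in EGFRvIII and 6.26 ± 0.19 in PDGF-B cells (0.79, SE 0.16; limma adjusted p = 0.0546). Both were higher in 4 of 4 EGFRvIII arrays than in either PDGF-B array, which 22.5% of all tested genes showed. Among 28 tested genes of the secretory pathway that XBP1 is known to control, 0 passed, where 2.23% of all tested genes did. An unadjusted p under 0.05 was found for 3, against 25.0% of all tested genes. With each array centred the list median was -0.15 with 24 of 28 negative, against 57.4% of all tested genes in that fit. Without centring it was -0.02 with 15 of 28 negative, against 43.5%. Ssr2, a translocon subunit, was at -0.64 on that scale (SE 0.13; limma adjusted p = 0.0563) and Sec62, a translocation factor, 0.41 (SE 0.13; limma adjusted p = 0.112), or 0.13 as the mean of its probe sets. Of the 9 tested sensors, partners and death effectors outside the 10 genes none passed or had an unadjusted p under 0.05. Of all tested genes 2.23% and 25.0% did. Creb3, a membrane-bound relative of ATF6, had 0.24, and Tmbim6, an inhibitor of cell death at the reticulum that restrains IRE1α, 0.31 (limma adjusted p = 0.279 and 0.309).

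**Figure D4:**
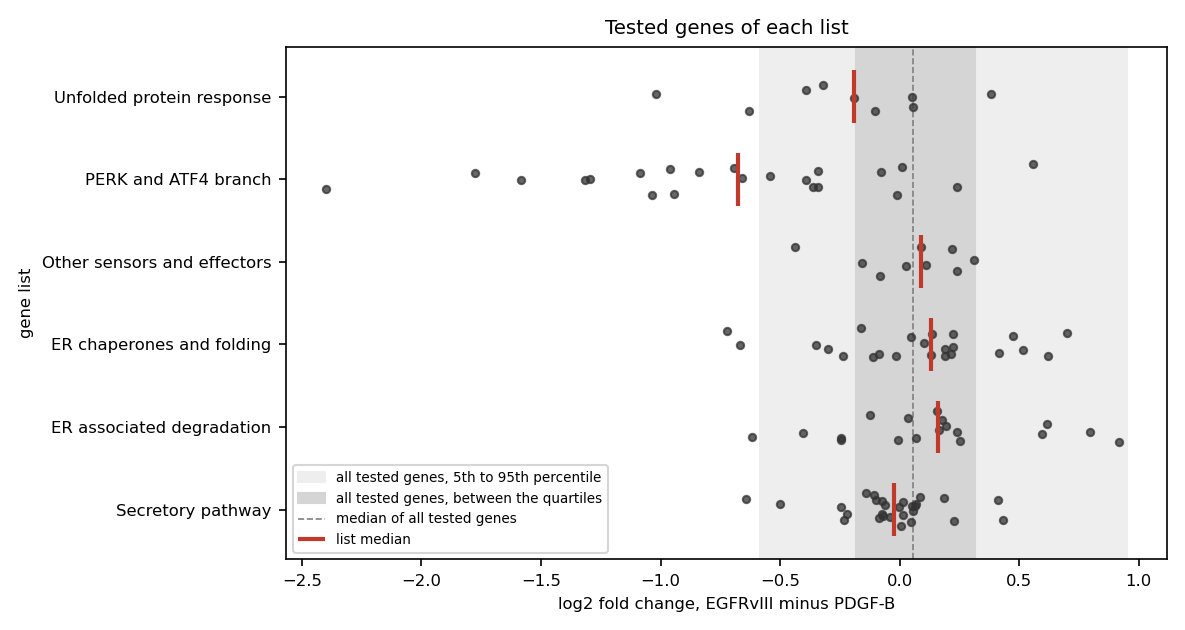
Log2 fold change (EGFRvIII minus PDGF-B, horizontal axis) of every tested gene of 6 lists, 1 point per gene, with the list median as a red bar (ER, endoplasmic reticulum). Grey bands cover the 5th to 95th percentile and the range between the quartiles of all 6761 tested genes and the dashed line is their median. The median of the PERK and ATF4 genes is -0.68, or -0.29 without PDGF-B replicate 1, and that of all tested genes is 0.06.

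Immediate early and dissociation stress genes, which respond to cell handling within minutes to hours, had 1 call among 11 tested. Of all tested genes 2.23% were called. The log2 fold change was positive for 8 of the 11 and negative for 3, where 43.5% of all tested genes were negative. In 5 every EGFRvIII array lay above both PDGF-B arrays, against 22.5% of all tested genes. In 1, Egr1 (log2 fold change -0.43), every EGFRvIII array lay below both, against 14.9%. The mean of the 15 measured genes was 8.45, 8.99, 8.35 and 8.29 in EGFRvIII replicates 1 to 4, against 7.68 and 8.29 in PDGF-B replicates 1 and 2. PDGF-B replicate 1, the array with the highest ATF4 targets, thus had the lowest mean of these genes, and EGFRvIII replicate 2, with the highest Xbp1 among the EGFRvIII arrays, the highest mean. The gene called was Dusp1, a phosphatase (log2 fold change 1.29, limma adjusted p = 0.0495). The part of these genes' levels in the values above was not tested.

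Genes most like a member over the 6 arrays were sought by the mean absolute difference between deviations from each gene's own mean. Nearest to Hspa5 were Rpa2, Atp5g1 and Golga3, each at 0.06, where the median gene of 6760 lay at 0.26. Nearest to Xbp1 were Gtpbp1, Trip12 and Lrp10 at 0.07 to 0.08 (median gene 0.33). Nearest to Ddit3 were Cebpb, Asns and Morc4 at 0.17 to 0.19 (median gene 0.58), and Cebpb and Asns are both on the PERK and ATF4 list.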

How the data were processed

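Total RNA of sorted glioma cells (30 ng) was amplified to cDNA, biotin labelled and hybridized to Affymetrix arrays, per the labels' protocols. The authors deposited 1 log2 intensity for each probe set and array; the submitters' processing notes name RMA and affy 3.4.2. That the scale is log2 was taken from its span, 2.22 to 14.4. The genome build was not given in the sources used here. Both deposited tables agreed to 5e-09. Platform symbols were updated by Entrez identifier for 20351 of 20380 probe sets with 1 symbol; 691 with several symbols named no gene.

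EGFRvIII arrays (4) were compared with PDGF-B arrays (2) with limma 3.58.1 in R 4.3.3 (lmFit and eBayes, two-sided, no covariate, 4 residual and 2.81 prior degrees of freedom), once per gene and once per probe set, adjusting p-values over all genes or probe sets tested. The labels call samples of a group biological replicates; 6 arrays limit the precision. The genes, lists and alternatives were chosen with earlier results of these data known. Named are all 10 genes, of each other list the called genes (up to 4) or else the 2 with the smallest p, the 3 genes most like Hspa5, Xbp1 and Ddit3, and others where stated. The procedure was tested on simulated data. Figures used matplotlib 3.10.9.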

Additional observations from a re-analysis of the deposited data

Results flagged for a closer look

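Dixon's test over the 4 EGFRvIII arrays was applied to 49 values and singled out 1 array in 4 of them; about 1 in 20 is passed by chance. Xbp1 in EGFRvIII replicate 2 read 8.24, and the remaining EGFRvIII arrays read 7.55 to 7.63. Herpud1 read 7.26 in that array and 6.83 to 6.88 elsewhere in the group. The median deviation of the 9 tested unfolded protein response genes from their own means was 0.16 there and -0.19 to -0.15 in the remaining EGFRvIII arrays. Ero1a read 7.87 in EGFRvIII replicate 4 and 8.28 to 8.30 elsewhere in the group.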

How the results depend on the processing

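No unfolded protein response gene was called in any of 18 alternatives (lowest limma adjusted p 0.0567). Of their probe sets 1 was called over probe sets above the median in all 6 arrays, and 0 to 1 when leaving out an array. Over all genes, 151 called genes became 77 with no filter, 265 with the filter in all 6 arrays, 254 with a trended robust variance, 9 with the replicate block, 3 with Xist as covariate, 16 in the 4 high-Xist arrays, 5 at an adjusted p under 0.01, and 1 (without PDGF-B replicate 1) to 155 when leaving out an array. Of the PERK and ATF4 genes 2 were called after centring, 2 with a trended robust variance, 1 with the all-array filter, and 0 to 1 when leaving out an array. The all-array filter and the trended robust variance each called 1 degradation gene (Os9) and 1 secretory gene (Ssr2).

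Signs near 0 turned. Hspa5 (0.05) had -0.0711 after centring, -0.017 with the replicate block and -0.19 to 0.29 when leaving out an array; its other probe set (0.26) had -0.0223 to 0.55. Hsp90b1 (-0.10) had 0.0019 in the high-Xist arrays and -0.31 to 0.11 when leaving out an array; its other probe set (0.07) had -0.0518 after centring and -0.11 to 0.25. Eif2ak3 (0.06) had -0.0671 after centring, -0.0673 with Xist as covariate, -0.0757 in the high-Xist arrays and -0.11 to 0.22 when leaving out an array. Dnajc3 had -0.0812 as the mean over its probe sets, and 1419163_s_at -0.0448 to 0.37 when leaving out an array. For Xbp1, 1420011_s_at had 0.0399 with the replicate block and -0.18 to 0.0856 when leaving out an array, and 1420012_at 0.0753 with the block. Creld2 (0.22) had -0.41 to 0.86 when leaving out an array. Atf4, Atf6, Ddit3, Xbp1 and Herpud1 kept their sign in all 17 alternatives, but Herpud1 (-0.19) had -0.0034 without PDGF-B replicate 1, Xbp1 (-0.32) -0.14 without PDGF-B replicate 2, and Atf6 (-0.39) -0.18 with the replicate block.

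Only replicates 1 and 2 are shared between groups; same-numbered arrays had correlated deviations of 0.20 and 0.25, with too few pairs to establish a pairing. With the replicate block, 0 of the 9 unfolded protein response genes and 8 of the 22 PERK and ATF4 genes had an unadjusted p under 0.05, and Cebpg and Stc2 had adjusted p-values of 0.146 and 0.110. Where an array was left out from the PDGF-B group, the lone array is assumed to vary like the others. The causes were not tested. RMA leaves background in dim values, which compresses folds such as those of Ern1.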
